A study of Mus musculus with 12 samples.

Results

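Mouse embryonic stem cell clones 4 and 10 were compared with each other in the cells that were sorted as GFP-negative. The comparison rests on 6 of the 12 RNA-seq libraries of the study, 3 from each clone, and was described across genes and by chromosome. The 6 GFP-positive libraries of the same clones are given beside it, and they enter the fit only through the shared filter, scaling and estimate of spread.

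Both clones carry a floxed Sphk1 and a null Sphk2 (Sphk1fl/fl Sphk2-/-), so every group, the controls included, is labelled as lacking Sphk2. All cells were grown in serum with LIF, were exposed for 48 hours to (Z)-4-Hydroxytamoxifen at 6 uM, and were then separated by the fluorescence of Cre-GFP. The GFP-negative cells of either clone are labelled as keeping the floxed Sphk1, and the GFP-positive cells as Sphk1-/- Sphk2-/-. GFP-negative libraries came from passages 11, 13 and 15 in clone 4 and 11, 17 and 19 in clone 10, so later passages move with clone 10. GFP-positive libraries came from passages 11, 14 and 16 in clone 4 and 12, 18 and 20 in clone 10. Each side of the comparison is 1 clone, and the promoter that drives Cre is not given in the sources used here. The labels do not say whether replicates are separate cultures. The p-values here measure only the spread of these libraries within 1 clone on each side. That spread takes in passage, and how much of it is technical is not known.

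Sphk1 and Sphk2 encode the kinases that turn sphingosine into sphingosine 1-phosphate, a lipid that signals through receptors on the cell surface and is broken down or exported again. Embryonic stem cells in serum and LIF hold a network of transcription factors around Pou5f1, Sox2 and Nanog, and a small share of them passes through a state in which genes of the cleavage-stage embryo, such as the Zscan4 cluster, are switched on. A comparison of clones within a gate shows how far cells of the same labelled genotype differ from clone to clone.

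The 6 libraries held 12968916 to 32614087 counts, and clone 10 replicate 1 was the shallowest. In that library mitochondrial genes took the smallest share of counts, 0.143% against 0.594% to 2.11% in the other 5 GFP-negative libraries, and the 10 most abundant genes the greatest, 7.39% against 4.23% to 5.22%. Its mean log2 CPM over 24 fibroblast and matrix genes, markers of possible feeder cells, was also the lowest at 2.64, and the range in the others was 3.85 to 5.97. CPM stands throughout for the usual scaled read count, taken on the library size after TMM normalization. The first principal component of the 6 libraries took 40.2% of the variance and did not separate the clones, whose libraries interleaved along it. Libraries of clone 4 lay at -33.6, 62.8 and 22.7 and those of clone 10 at -96.0, 12.0 and 32.0 on that component. The second component took 30.7%, with clone 4 at 59.2, 56.0 and -16.2 and clone 10 at -5.08, -67.6 and -26.3. On it the clones lay further apart, but clone 4 replicate 3 fell among the clone 10 libraries.

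Of 15179 genes tested, 7 (0.0461%) differed between the clones in GFP-negative cells at an adjusted p under 0.05 in edgeR's quasi-likelihood test. Tmprss5, Serpinb6c, Rassf4, Mid1ip1, Smoc1 and Mapt were higher in clone 10 (6 genes, 0.0395%) and Rbm44 was lower (1 gene, 0.00659%). Without adjustment, 865 genes were higher (5.70%) and 937 lower (6.17%) at a p under 0.05. DESeq2 called 236 of 15148 genes higher (1.56%) and 182 lower (1.20%), 418 in all (2.76%), among them all 7, while a fit of the 6 GFP-negative libraries alone called 0. Leaving out any 1 of the 6 GFP-negative libraries left 0 calls, or 2 without clone 10 replicate 1, and 1 of those 2 was among the 7. The same held for some GFP-positive libraries, which share in the estimate of the spread, since the calls fell to 0 without clone 4 replicate 3 or without any 1 of the 3 clone 10 replicates of that gate. The fold changes of the 7 genes kept their direction under every one of these settings.

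Rbm44, an RNA-binding protein gene on chromosome 1 (mm10, 91145103 to 91170795), stood at 46.8, 34.8 and 27.3 CPM in clone 4 and at 7.16, 6.09 and 7.69 CPM in clone 10. The clones did not overlap, and the lowest clone 4 library was well above the highest of clone 10. Its log2 fold change was -2.38 (SE 0.30, adjusted p = 0.0293), a level 5.20-fold higher in clone 4. In GFP-positive cells the log2 fold change was -2.20 (adjusted p = 0.017).

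Mid1ip1, on the X chromosome (10715013 to 10719690), encodes a protein that promotes fatty acid synthesis by acting on acetyl-CoA carboxylase. It stood at 38.3, 29.4 and 29.7 CPM in clone 4 and at 119.5, 98.7 and 84.8 CPM in clone 10. All clone 10 libraries lay above all clone 4 libraries, by a log2 fold change of 1.64 (SE 0.21, adjusted p = 0.0293). Smoc1, on chromosome 12 (81026808 to 81186414), encodes a secreted calcium-binding matrix protein and stood at 9.50, 13.1 and 13.4 CPM in clone 4 against 33.6, 39.8 and 35.3 CPM in clone 10. The rise was 3.02-fold, or 1.60 on the log2 scale (SE 0.23, adjusted p = 0.04). Mapt, the gene of the microtubule-binding protein tau on chromosome 11 (104231390 to 104332090), stood at 39.1, 41.9 and 35.1 CPM in clone 4 and at 104, 89.0 and 101 CPM in clone 10. Its log2 fold change was 1.34 (SE 0.20, adjusted p = 0.0446), and these replicates were among the tightest of the 7 genes, with an SD of 3.46 CPM in clone 4 and 7.91 CPM in clone 10 (n = 3 each).

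Tmprss5, a transmembrane serine protease gene on chromosome 9 (49081260 to 49117587), had the largest fitted change of the 7, 5.66 on the log2 scale (SE 0.76, adjusted p = 0.04). It was close to undetected in clone 4, with 5, 1 and 5 reads (0.223, 0.0483 and 0.198 CPM), and held 40, 193 and 317 reads in clone 10 (3.72, 6.35 and 14.7 CPM). The clone 10 libraries spread widely among themselves, and all lay far above those of clone 4. Rassf4, of the Ras association domain family on chromosome 6 (116633008 to 116673836), stood at 1.70, 1.30 and 0.872 CPM in clone 4 against 7.44, 7.97 and 6.77 CPM in clone 10 (log2 fold change 2.52, SE 0.37, adjusted p = 0.0446). Serpinb6c, a protease inhibitor gene on chromosome 13 (33879816 to 33905708), stood at 5.80, 13.4 and 7.85 CPM against 60.4, 40.4 and 55.9 CPM (log2 fold change 2.54, SE 0.36, adjusted p = 0.04). Serpinb6c lies among close copies of itself, and how reads were split between them is uncertain.

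**Figure D1:**
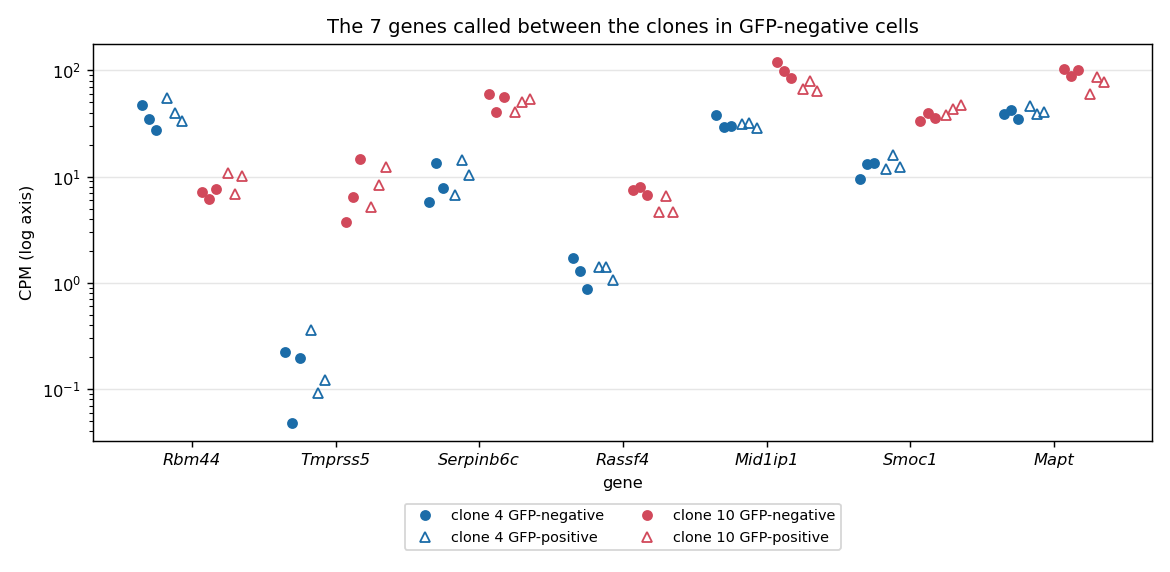
Level of the 7 called genes in each library, in CPM on a log axis, with filled circles for GFP-negative and open triangles for GFP-positive libraries, blue for clone 4 and red for clone 10. For each gene the 3 clone 10 libraries of a gate lie on one side of the 3 clone 4 libraries, lower for Rbm44 and higher for the other 6.

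The next genes were taken by smallest p only from genes whose clones did not overlap, and none passed the threshold. Among those lower in clone 10, Tmem63a, a mechanically gated ion channel gene, stood at 35.6, 44.0 and 31.5 CPM in clone 4 and at 10.0, 13.0 and 9.04 CPM in clone 10 (log2 fold change -1.79, adjusted p = 0.0501). Ipp, a kelch-repeat gene named for its promotion by an intracisternal A particle, stood at 97.3, 91.1 and 84.9 CPM against 30.5, 9.87 and 13.0 CPM (log2 fold change -2.37, adjusted p = 0.0923). Epcam, an adhesion molecule of embryonic stem cells and epithelia, stood at 366, 295 and 256 CPM against 149, 144 and 99.4 CPM (log2 fold change -1.23, adjusted p = 0.108). Atp1b2, a subunit of the sodium pump, had a log2 fold change of -2.55 (adjusted p = 0.108). Mid1, a ubiquitin ligase gene at the distal end of the X chromosome, went from 18.7, 29.5 and 57.3 CPM in clone 4 to 0.929, 4.44 and 6.16 CPM in clone 10 (log2 fold change -3.16, adjusted p = 0.108). Also on this side of the ranking were Tmem45a, Kcnk1, Map7d2, Cdcp1, Arhgap27, Cyb5r1, Mtus2 and Fgl1, with log2 fold changes from -1.93 to -1.08 and adjusted p-values of 0.107 or 0.108.

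Among the genes with higher values in clone 10 that missed the threshold, Zbtb7c, a zinc finger gene, stood at 2.50, 2.27 and 4.16 CPM in clone 4 and at 13.7, 14.1 and 16.7 CPM in clone 10 (log2 fold change 2.31, adjusted p = 0.0517). Chac1, an enzyme that degrades glutathione, had a log2 fold change of 2.08 (adjusted p = 0.107), and Padi4, which converts arginine in proteins to citrulline, one of 1.55 (adjusted p = 0.107). Mecom, a transcription factor gene, stood at 0.892, 1.45 and 1.23 CPM against 12.0, 6.02 and 7.92 CPM (log2 fold change 2.85, adjusted p = 0.108). Accsl, Fhl1, Depdc1b, Mfsd12 and Ets2 had log2 fold changes from 1.00 to 2.87 with adjusted p-values of 0.107 or 0.108. No gene that was under 0.1 CPM in all 3 libraries of one clone and over 1 CPM in all 3 of the other was called. Tdpoz3, Gm4778 and Gm2056 met that pattern of levels, each on the low side in clone 4, with adjusted p-values of 0.213, 0.108 and 0.108.

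In the GFP-positive libraries, 168 genes (1.11%) differed between the same clones, 126 higher in clone 10 (0.830%) and 42 lower (0.277%). All 7 genes called in GFP-negative cells had the same sign there, and 6 of the 7 (6 of the 168) were called in both gates. Mapt was the exception, with a log2 fold change of 0.84 in GFP-positive cells (adjusted p = 0.0591). All 168 genes called in GFP-positive cells had the same sign in GFP-negative cells, and for 143 of them the GFP-negative libraries of the clones did not overlap, on the side given by the GFP-positive call. Over all genes, 1033 had all 3 GFP-negative libraries of clone 10 above those of clone 4 (6.81%) and 1067 the reverse (7.03%). With CPM taken from the total counts without TMM scaling, that split was 651 against 1619. A test of whether the clone difference itself differed between the gates called 0 genes (0.00%) in edgeR, 140 at an unadjusted p under 0.05, and 0 in DESeq2 and in limma-voom. With each clone-and-number pair of libraries as a block, edgeR also called 0 genes (0.00%), with 1167 at an unadjusted p under 0.05 (7.69%). Only the pair of clone 4 replicate 1 has the same passage in both gates, so gate and passage are partly mixed within the block. The gates share no library, but same-numbered libraries of a clone deviated together across gates, so they are not independent repeats of the comparison.

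**Figure D2:**
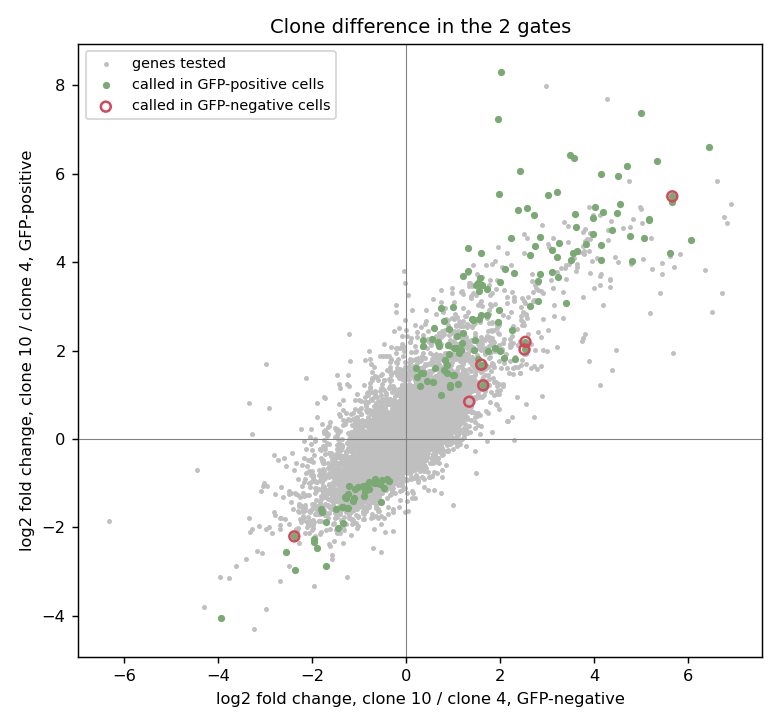
Log2 fold change of clone 10 over clone 4 for each tested gene in GFP-negative cells (horizontal) and GFP-positive cells (vertical), with genes called in GFP-positive cells in green and the 7 called in GFP-negative cells ringed in red. The 168 green points lie in the quadrants where both gates have the same sign.

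The clones also differed in the level of whole chromosomes. On chromosomes 5, 8, 11 and 19 the median gene was lower in clone 10, with median log2 fold changes of -0.24, -0.22, -0.26 and -0.21, against 0.04 over all genes tested. On the other 15 autosomes the medians ran from 0.08 on chromosome 9 to 0.28 on chromosome 13. These 4 chromosomes were singled out after their values were seen. They held 3556 of the tested genes (23.4%), 495 of the 937 genes that were lower at an unadjusted p under 0.05 (52.8%) and 60 of the 865 that were higher (6.94%). Of the 7 called genes, only Mapt lies on them, and it was higher in clone 10.

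Most genes of these chromosomes shared the direction of the median. Values below 0 made up 70.1% of the 969 genes tested on chromosome 5, 70.5% of 811 on chromosome 8, 72.6% of 1246 on chromosome 11 and 64.7% of 530 on chromosome 19, against 46.6% of all genes. In windows of 50 neighbouring tested genes, all 19 windows of chromosome 5, all 16 of chromosome 8, all 24 of chromosome 11 and all 10 of chromosome 19 had a median below 0. In windows of 25 genes, 37 of 38, 31 of 32, 46 of 49 and 18 of 21 were below 0 on chromosomes 5, 8, 11 and 19, and in windows of 100 genes all 9, 8, 12 and 5. On chromosome 10, by contrast, none of 14 windows of 50 genes was below 0.

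Each library was also read on its own, as the median deviation of a chromosome's genes from the mean of the 6 libraries of the gate. On chromosome 5 these medians were 0.11, 0.14 and 0.17 in clone 4 and -0.16, -0.13 and -0.11 in clone 10. On chromosome 11 they were 0.16, 0.15 and 0.16 against -0.08, -0.24 and -0.15. Chromosomes 8 and 19 gave 0.13 ± 0.05 and 0.14 ± 0.02 in clone 4 against -0.12 ± 0.06 and -0.12 ± 0.08 in clone 10 (mean ± SD, n = 3). The clones did not overlap on any of the 4, and an exact two-sided permutation test gave p = 0.1 on each, the smallest that 3 against 3 libraries allow (0.25 after adjustment over 20 chromosomes). Such separation was seen on 8 of the 20 chromosomes (40.0%), the others being 4, 6, 7 and 13, and on 16 of 20 (80.0%) in GFP-positive cells.

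Relative to the other 15 autosomes of the same library, the genes of chromosomes 5, 8, 11 and 19 lay 0.21, 0.15 and 0.18 higher in clone 4 and 0.11, 0.25 and 0.20 lower in clone 10, on the log2 scale. The difference of the median fold changes was -0.38, so that the 4 chromosomes were 1.30-fold higher in clone 4 when set against the rest. It was -0.37 in GFP-positive cells, where the 4 medians were -0.31, -0.30, -0.30 and -0.26. This relative value does not depend on the scaling between libraries. The absolute level does, because with total counts in place of TMM scaling the median over all genes moved from 0.04 to -0.12, that of the 4 chromosomes from -0.24 to -0.40 and that of the other 15 autosomes from 0.14 to -0.02. With passage number as a covariate the difference was -0.34, and without clone 10 replicate 1 it was -0.41. The files hold no measurement of DNA.

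**Figure D3:**
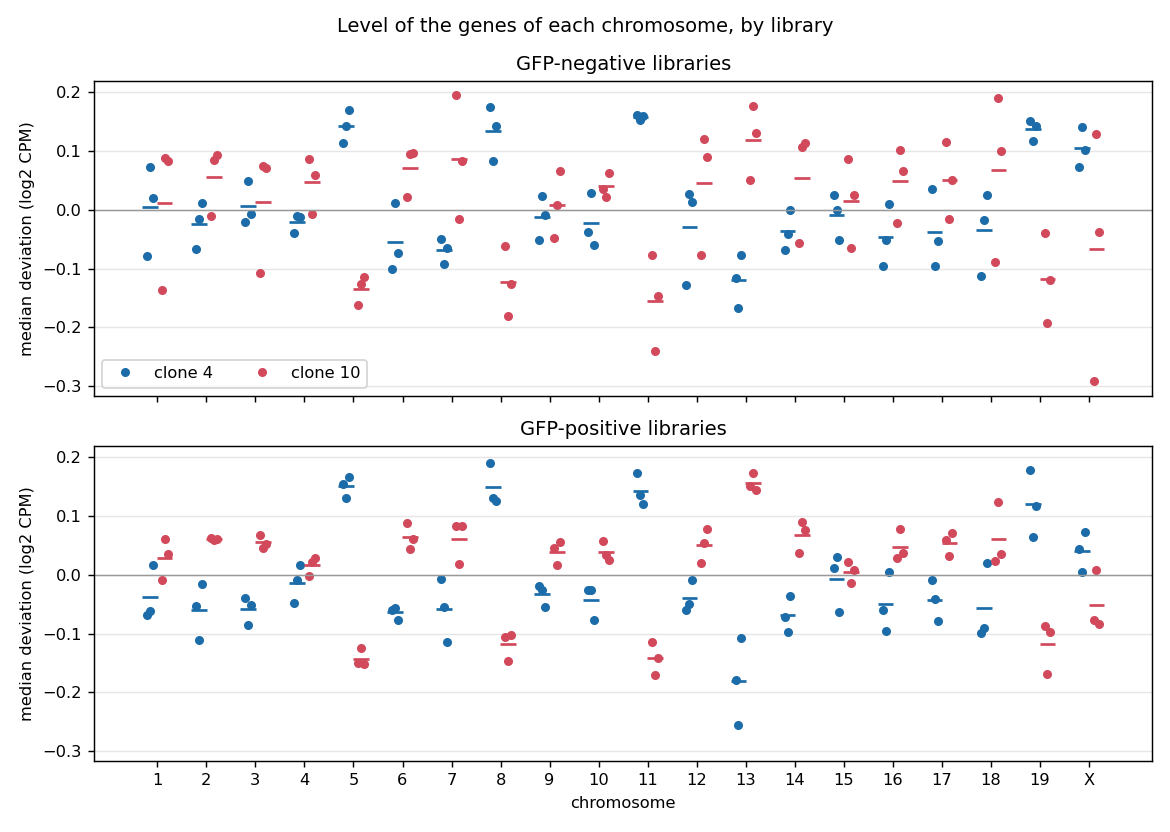
Median deviation of the genes of each chromosome in each library from the mean of the 6 libraries of its gate (log2 CPM), blue for clone 4 and red for clone 10, with short bars for the mean of 3 libraries. On chromosomes 5, 8, 11 and 19 every clone 4 library lies above 0 and every clone 10 library below it, in both gates.

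Among genes with lower values in clone 10, those with the smallest p on chromosomes 5, 8 and 19 had moderate changes, and none was called. On chromosome 5, Vsig10 stood at 24.8, 29.3 and 24.5 CPM in clone 4 and at 9.94, 9.08 and 14.2 CPM in clone 10 (log2 fold change -1.24, adjusted p = 0.108). Stag3, a cohesin subunit of meiosis, stood at 93.7, 155 and 76.0 CPM against 24.7, 30.2 and 43.0 CPM (log2 fold change -1.73, adjusted p = 0.108). On chromosome 8 the potassium channel gene Kcnk1 had a log2 fold change of -1.30 (adjusted p = 0.107) and the chaperone gene Clgn one of -1.32 (adjusted p = 0.108). On chromosome 19, Map4k2, a kinase upstream of stress-activated kinases, had one of -1.11 (adjusted p = 0.125), and Rtn3, a shaper of the endoplasmic reticulum, and Pacs1, a sorting protein, ones of -0.79 and -0.80 (both adjusted p = 0.159). In all these genes the libraries of the clones did not overlap. The genes were picked by smallest p from the same values, so this adds no support. Over all genes tested, clone 4 was higher without overlap in 7.03%. On chromosomes 5, 8 and 19 it was so in 155 of 969, 120 of 811 and 68 of 530.

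Other chromosomes differed along part of their length, again chosen after the values were seen and described without a test. The distal window of chromosome 13 (100107997 to 120318076, 94 tested genes) had a median log2 fold change of 0.75, or 1.69-fold higher in clone 10, and 85 of its 94 genes were above 0. At an unadjusted p under 0.05, 52 of them were higher and 1 was lower. The libraries stood at -0.44, -0.42 and -0.19 in clone 4 and at 0.27, 0.68 and 0.35 in clone 10, and the median was the same, 0.75, in GFP-positive cells. The window before it (92751590 to 100104070) had a median of 0.38, and the 300 genes before that one of 0.15, close to the other autosomes. Within the distal window, Depdc1b stood at 10.7, 9.32 and 18.2 CPM in clone 4 against 39.8, 37.3 and 31.6 CPM in clone 10 (log2 fold change 1.51, adjusted p = 0.107). Snx18, a sorting nexin, and Pik3r1, the regulatory subunit of phosphoinositide 3-kinase, had log2 fold changes of 1.04 (adjusted p = 0.108) and 1.00 (adjusted p = 0.109).

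The X chromosome held both directions. Its first 100 tested genes (6047453 to 37150746) had a median log2 fold change of 0.66, or 1.58-fold higher in clone 10, with 87 of 100 above 0, and the 425 genes beyond them (37187588 to 170019281) a median of -0.22. In the proximal stretch the libraries stood at -0.27, -0.30 and -0.25 in clone 4 and at 0.22, 0.45 and 0.23 in clone 10, with no overlap. In the rest of the chromosome clone 10 was uneven, at -0.42, 0.04 and -0.10 against 0.19, 0.24 and 0.16 in clone 4, and the lowest of these was replicate 1. GFP-positive cells gave 0.66 and -0.27 for the same stretches. Mid1ip1 lies in the proximal one. So do Cdk16, a cyclin-dependent kinase gene, at 207, 207 and 182 CPM in clone 4 against 354, 343 and 395 CPM in clone 10 (log2 fold change 0.88, adjusted p = 0.108), Maoa, the monoamine oxidase A gene (0.92, adjusted p = 0.108), and Hdac6, a cytoplasmic deacetylase gene (0.73, adjusted p = 0.17). Mid1 and Map7d2, both with lower values in clone 10, lie in the distal stretch.

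Chromosome 6 also changed level along its length. The 400 tested genes of its first 8 windows had a median log2 fold change of 0.04, and the 329 genes after them (89643988 to 149583656) one of 0.36, with 64 higher and 1 lower at an unadjusted p under 0.05. In GFP-positive cells these medians were 0.07 and 0.18. Rassf4 and Nanog lie in the second stretch. On chromosome 13, windows 2 and 3 (19623175 to 34035170), which hold a cluster of histone genes, had a median of 0.48 in GFP-negative and 1.41 in GFP-positive cells. The GFP-negative libraries stood at -0.02, -0.32 and -0.17 in clone 4 and at 0.84, -0.07 and 0.05 in clone 10. The clones thus overlapped, and the highest value was that of clone 10 replicate 1, the shallowest library. Serpinb6c lies there.

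**Figure D4:**
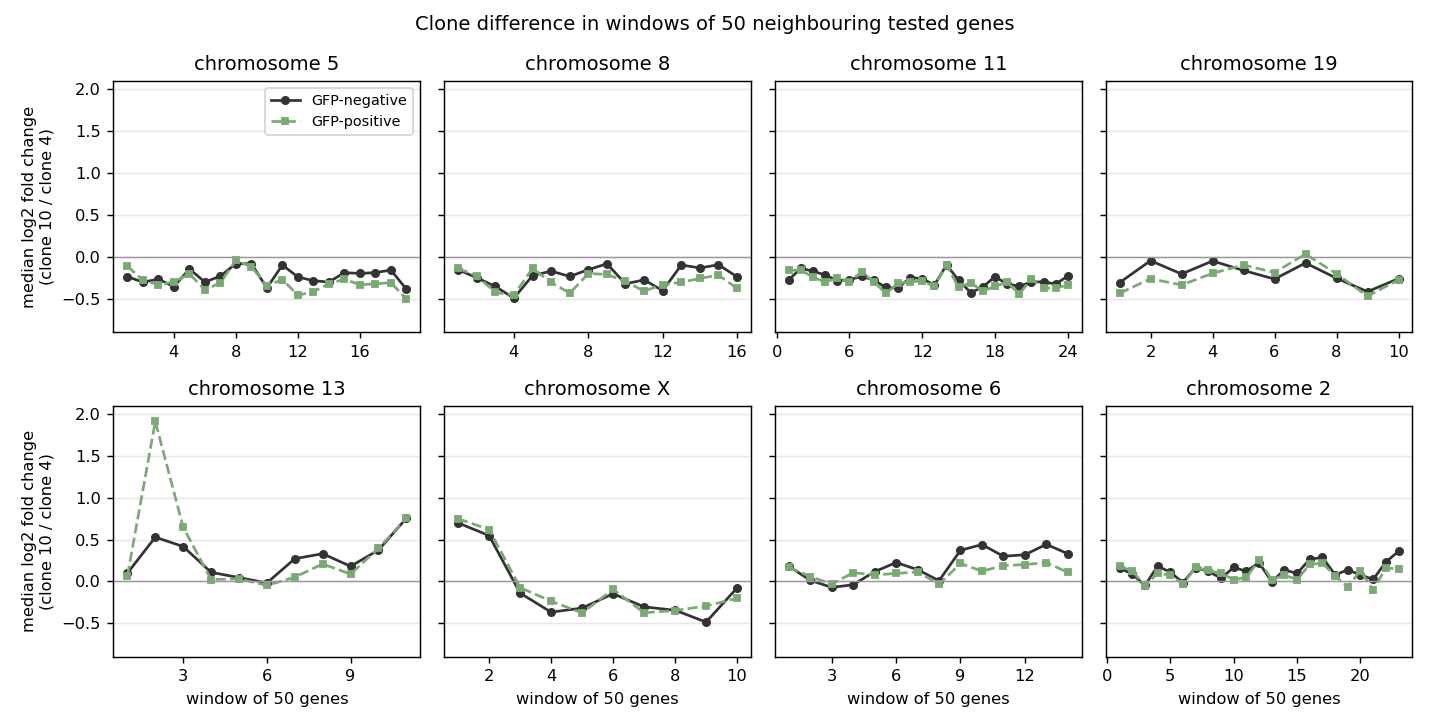
Median log2 fold change of clone 10 over clone 4 in successive windows of 50 tested genes along 8 chromosomes, dark circles for GFP-negative and green squares for GFP-positive cells. Chromosomes 5, 8, 11 and 19 stay below 0 in all windows of this size in GFP-negative cells, chromosome 13 ends at 0.75 and the X chromosome begins at 0.70, while chromosome 2 is shown for reference.

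Gene lists for pathways and cell states gave 0 called members in GFP-negative cells in edgeR and in limma-voom, against 7 calls over all genes, so they are described by counts and medians beside the median of 0.04 over all genes tested. Counts of members at an unadjusted p under 0.05 stand beside the 5.70% higher and 6.17% lower over all genes, and counts by DESeq2 beside its 1.56% and 1.20%, so that 1 or a few members of a list of this size read as no result about it. The markers of embryonic stem cell identity were present in all libraries. Pou5f1 stood at 1757, 908.2 and 1311 CPM in clone 4 and at 3546, 1726 and 1360 CPM in clone 10, where the libraries overlap (log2 fold change 0.74, adjusted p = 0.471). Nanog stood at 574.4, 290.9 and 637.7 CPM against 740.3, 1052 and 990.9 CPM (0.89, adjusted p = 0.391), and Sox2 at 483.9, 153 and 411.3 CPM against 506.9, 627.8 and 564.4 CPM (0.70, adjusted p = 0.576). In all, 27 of 28 identity genes had values above 0, with a median of 0.64, and 4 were higher at an unadjusted p under 0.05 (background 5.70%). The median was 0.27 in GFP-positive cells. Fbxo15, a marker gene of the undifferentiated state, had the smallest p of the list, at 155, 108 and 101 CPM in clone 4 against 442, 262 and 306 CPM in clone 10 (log2 fold change 1.47, adjusted p = 0.174), and DESeq2 called 1 member higher (background 1.56%).

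Genes of the two-cell-like state had the largest median of any list, 3.61, and all 23 members tested, of 28 listed, were above 0. All 23 had clone 10 higher with no overlap between the clones, against 6.81% of all genes. Of these, 22 were higher at an unadjusted p under 0.05, against 5.70% of all genes, and DESeq2 called 16 higher, against 1.56%. Members this low in clone 4 could pass the filter on low counts through clone 10 alone, so the counts describe the list and support nothing. Without single libraries the median ran from 3.22 to 4.26. In GFP-positive cells the median was 4.43 and 9 were called. Zscan4f, from the cluster that marks this state, stood at 0.491, 0.0483 and 0.357 CPM in clone 4 and at 7.06, 5.83 and 3.48 CPM in clone 10 (log2 fold change 4.13, SE 0.94, adjusted p = 0.131). Usp17le, of a family of deubiquitinases, stood at 1.87, 0.241 and 1.07 CPM against 16.0, 13.6 and 9.50 CPM (3.60, SE 0.85, adjusted p = 0.148). Members of the Zscan4, Usp17l and Tdpoz families are near-identical copies whose reads cannot be assigned with certainty, so the 23 are not separate measurements. In sorted pools a larger number of cells in this state and more RNA per cell cannot be told apart.

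Imprinted genes went both ways, with 27 of 41 tested above 0, a median of 0.29, and 8 higher and 2 lower at an unadjusted p under 0.05 (background 5.70% and 6.17%). Rtl1, a retrotransposon-derived gene expressed from the paternal allele, stood at 0.0446, 0 and 0.277 CPM in clone 4 and at 0.929, 2.40 and 2.32 CPM in clone 10 (log2 fold change 4.02, adjusted p = 0.108). Snrpn, a splicing factor gene of the Prader-Willi region, stood at 54.8, 37.6 and 59.0 CPM against 214, 128 and 76.5 CPM (1.47, adjusted p = 0.15), and Sfmbt2, a Polycomb protein gene, had a log2 fold change of 2.74 (adjusted p = 0.122). Mest, a hydrolase gene, was on the other side, at 29.1, 25.8 and 49.97 CPM against 8.83, 13.0 and 6.12 CPM (-1.90, adjusted p = 0.169). None of these 4, which were named for their small p, overlapped between the clones. Over the list, 7 of 41 members had clone 10 higher without overlap and 2 had clone 4 higher. The shares over all genes were 6.81% and 7.03%. DESeq2 called 5 imprinted genes higher and 1 lower (background 1.56% and 1.20%).

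In the pathway that the alleles touch, Sphk1 stood at 1.92, 2.80 and 1.74 CPM in clone 4 and at 0.836, 1.51 and 4.17 CPM in clone 10. Its log2 fold change was 0.03 (SE 0.64, adjusted p = 0.989), the libraries overlapped, and its sign turned under several of the other settings. Sphk2, whose transcript was still counted although the cells are labelled as null for it, stood at 1.16, 2.94 and 5.98 CPM against 3.81, 8.95 and 6.49 CPM (0.94, SE 0.65, adjusted p = 0.582). Gene-level counts do not show which exons the reads came from. Over the sphingolipid list 32 of 46 tested members were below 0, with a median of -0.25 and 5 lower and 1 higher at an unadjusted p under 0.05 (background 6.17% and 5.70%), and DESeq2 called 1 lower (background 1.20%). The 1 call by DESeq2 reads as no result about the list. Clone 4 was higher without overlap in 9 of the 46 members and clone 10 in 0. Over all genes these shares were 7.03% and 6.81%. The list was not tested as a set, and its median was -0.11 in GFP-positive cells. Sgpp1, a sphingosine 1-phosphate phosphatase, stood at 31.7, 30.2 and 23.98 CPM in clone 4 and at 11.5, 16.2 and 17.2 CPM in clone 10 (-0.93, SE 0.22, adjusted p = 0.15). The exporter gene Spns2 had a log2 fold change of -1.51 (adjusted p = 0.254), the ceramide synthase gene Cers5 one of -0.57 (adjusted p = 0.278), and the ceramide transfer protein gene Col4a3bp one of 0.81 (adjusted p = 0.322). Spns2 lies on chromosome 11 and Col4a3bp on chromosome 13.

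Germline and meiosis genes lay mostly below 0 (16 of 21, median -0.54), with 1 higher and 3 lower at an unadjusted p under 0.05 (background 5.70% and 6.17%). Tex11, a meiotic recombination gene, stood at 21.1, 31.5 and 16.8 CPM in clone 4 and at 11.0, 12.4 and 8.99 CPM in clone 10 (log2 fold change -1.10, adjusted p = 0.161), while the homeobox gene Rhox5 had a log2 fold change of 2.80 (adjusted p = 0.359). Genes of DNA replication had 25 of 30 members above 0 (median 0.45) and genes of mitosis 21 of 25 (median 0.30), with 7 and 6 higher and none lower at an unadjusted p under 0.05 (background 5.70% and 6.17%). Ccnd3, a D-type cyclin, stood at 219, 135 and 162 CPM against 483, 264 and 349 CPM (1.09, adjusted p = 0.159). Interferon response genes had 28 of 34 members above 0 (median 0.61), among them Rtp4 at 13.2, 20.6 and 40.3 CPM against 85.8, 55.9 and 73.4 CPM (1.54, adjusted p = 0.233). Genes of MHC class I and antigen presentation were below 0 in 15 of 23 (median -0.21), with the peptide transporter gene Tap2 at 8.83, 18.6 and 9.27 CPM against 2.70, 2.14 and 6.26 CPM (-1.72, adjusted p = 0.288). These 2 medians each turned with 1 library. That of the interferon list was -0.19 without clone 10 replicate 3 and reached 0.93 without clone 4 replicate 3, and that of antigen presentation was 0.11 without clone 4 replicate 2 and -1.16 without clone 10 replicate 3. At an unadjusted p under 0.05, 3 interferon response genes were higher (background 5.70%) and 3 genes of antigen presentation lower (6.17%). DESeq2 called 1 or 2 members in each of these 5 lists, against 1.56% higher and 1.20% lower over all genes. In GFP-positive cells the medians were -0.09 for germline and meiosis, 0.19 for DNA replication and 0.28 for mitosis. They were 0.57 for interferon response and -0.30 for antigen presentation.

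Lineage markers were mixed. Primitive endoderm genes had a median of 0.12 (9 of 16 above 0), trophoblast genes one of -0.14 (5 of 13), mesoderm and primitive streak genes one of -0.20 (5 of 14), and neuroectoderm genes one of 0.41 (9 of 14). The primitive endoderm median turned to -0.08, -0.05 and -0.31 without clone 4 replicate 1, clone 4 replicate 3 and clone 10 replicate 3, and the trophoblast median to 0.10 without clone 4 replicate 1. Without single libraries the mesoderm median ran from -0.56 to -0.06 and the neuroectoderm median from 0.17 to 0.72. Lmx1a, a transcription factor gene of dopaminergic and roof plate development, stood at 0.402, 0.821 and 0.436 CPM in clone 4 and at 7.53, 2.50 and 2.73 CPM in clone 10 (log2 fold change 2.92, adjusted p = 0.179). As a group, fibroblast and matrix markers overlapped between the clones. Of 24 tested (of 25 listed), 15 were above 0, with a median of 0.17 that turned to -0.08 without clone 4 replicate 1 and to -0.65 without clone 10 replicate 3. Their summed level spanned 1375 to 3244 CPM among clone 4 libraries and 1023 to 4811 CPM among those of clone 10. Vim, the intermediate filament gene, stood at 175, 249 and 208 CPM against 282, 382 and 452 CPM (0.82, adjusted p = 0.344). Col1a1, a fibrillar collagen gene chosen after its values were seen, stood at 27.1, 82.8 and 82.8 CPM against 8.92, 81.5 and 210.9 CPM, so that clone 10 held both the lowest and the highest library. Lum was listed at 0 in replicate 1 of either clone and the other markers were counted in all 6 libraries. Cells of any type without Cre-GFP would pass this gate, and their part in the differences between the clones was not tested. Among genes of the Y chromosome, Eif2s3y held 23, 8 and 14 reads in clone 4 and 3, 0 and 6 in clone 10, and Ddx3y, Kdm5d and Uty held between 0 and 9 reads in any GFP-negative library. Xist was not analysed here.

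**Figure D5:**
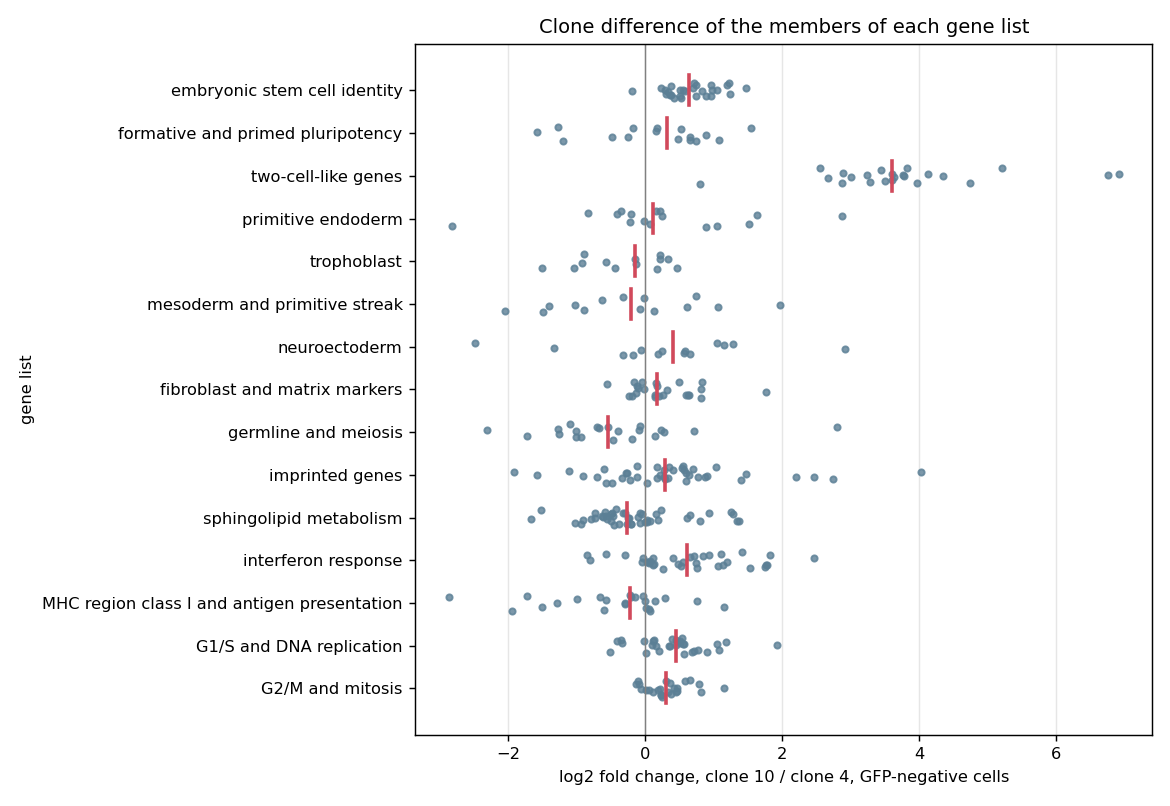
Log2 fold change of clone 10 over clone 4 in GFP-negative cells for each tested member of 15 gene lists, 1 point per gene, with a red bar at the median of the list. The two-cell-like genes lie apart at a median of 3.61, and the identity genes have 27 of 28 points above 0.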

How the data were processed

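RNA was sequenced from 12 libraries in 4 groups of 3. The deposited table gives read counts per gene as whole numbers, not normalized by the authors. The submitters' processing notes name the mm10 build and, as tools, STAR 2.3.0e, HTSeq 0.6.0, DESeq2 and DESeq. Neither the annotation release nor the strand setting is given there, and reads of overlapping genes cannot be told apart. Gene symbols and coordinates (mm10) come from the authors' tables per clone.

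Counts of all 12 libraries were fitted with a term per group in edgeR 4.0.16 under R 4.3.3, by the robust quasi-likelihood F test after TMM scaling with 8 residual degrees of freedom. That fit took the libraries as independent. Same-numbered libraries of a clone deviated together across gates (correlations 0.548 to 0.822), so the 8 degrees of freedom rest on deviations that are partly shared. The effect of this on the p-values was not tested. The default filter (10 counts at the median library size in 3 libraries, 15 in total) kept 15179 of 22753 genes. Benjamini-Hochberg adjustment ran over every gene tested. The biological coefficient of variation was 0.389. CPM and log2 CPM (prior count 2) were computed from the deposited counts. Chromosome values are medians of tested genes, compared over 3 and 3 libraries by an exact permutation test. The fit was also run on simulated libraries. These were drawn independently, unlike the real ones, so that run says nothing of how shared deviations affect the calls.

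Named genes were the 15 largest changes in each direction among calls whose average log2 CPM reached 1 and whose clones did not overlap, filled by smallest p, with up to 4 members of a list and up to 3 genes of a chromosome or window by smallest p. Sphk1, Sphk2, Y-linked and core identity genes were always named, and predicted names were passed over. A gene that the rule names is not reported here. The comparison, the lists and the rule were chosen with earlier results of these data known. Alternatives were median-of-ratios size factors, DESeq2 1.42.0, limma-voom 3.58.1, other filters, the libraries of 1 gate, a replicate block, passage as a covariate and leaving out each library. Total-count scaling, adjustment for GC content or transcript length and a restriction to genes averaging 4 or more in log2 CPM were added after the data were seen.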

Additional observations from a re-analysis of the deposited data

How the results depend on the processing

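The 6 higher and 1 lower calls in GFP-negative cells became 236 and 182 with DESeq2, 8 and 3 with limma-voom, 3 and 1 with no filter, 7 and 2 under the stricter filter, 18 and 4 with passage as a covariate, 2 and 4 with total-count scaling (chosen after seeing the data), and 0 and 0 with only the GFP-negative libraries. DESeq2, limma-voom, median-of-ratios size factors, the stricter filter and the passage covariate kept all 7 genes, no filter kept 4 and total-count scaling 3. Leaving out single libraries gave 0 to 17 higher and 0 to 2 lower calls, with 0 in 9 of the 12 cases. In GFP-positive cells the 126 higher and 42 lower calls became 559 and 331 with DESeq2, 327 and 89 with limma-voom, 33 and 5 with only that gate, 288 and 88 with the passage covariate and 77 and 24 with total-count scaling, and 0 to 224 higher and 0 to 89 lower without single libraries. The difference between the gates had 0 calls in each of these fits. The causes were not tested.

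Between the clones, GFP-negative libraries numbered 1 deviated together (correlation 0.588), but those numbered 2 and 3 did not (-0.0714 and -0.172). Instead, clone 4 replicate 2 deviated with clone 10 replicate 3 (0.530). Clone 4 replicate 3 likewise deviated with clone 10 replicate 2 (0.577). The numbers therefore do not pair the clones, although libraries of the clones did vary together. The replicate block joined the clones by number, so for numbers 2 and 3 it did not follow these shared deviations. With that block the calls were 42 higher and 6 lower in GFP-negative cells, 4 of them among the 7. In GFP-positive cells they were 0 and 0. For the difference between the gates, the block was each pair of a clone and a number, and it gave 0 calls in either direction.

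The chromosome difference of -0.38 stayed between -0.41 and -0.34 without single libraries and in the other fits, and was -0.31 with no filter, which adds genes of very low counts. On chromosomes 5, 8, 11 and 19 the median stayed below 0 under all settings, from -0.39 to -0.20, -0.38 to -0.18, -0.42 to -0.18 and -0.37 to -0.14, which includes adjustment for GC content and transcript length. Among the named genes, the sign turned in Sphk1, at -0.068 with total-count scaling, -0.16 with limma-voom, -0.27 with the replicate block, -0.52 with the passage covariate and -0.84 to 0.40 without single libraries. It also turned in Col1a1, at -0.075 with the replicate block, -1.12 with the passage covariate and -0.50 to 1.19 without single libraries. Genes of few reads, such as Sphk1, Tmprss5 in clone 4 and the Y-linked genes, are limited by depth.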
